A study of Sus scrofa with 6 samples.

Results

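Red cells are made in the fetal liver before the bone marrow takes over, and in a newborn the liver can still hold erythroblasts, the nucleated precursors of red cells. In these precursors GATA1 and KLF1 switch on the genes for haemoglobin, for haem synthesis and for the red cell membrane, and erythropoietin acts through its receptor EPOR to keep the cells alive. Young red cells that have lost their nucleus (reticulocytes) still carry globin RNA in the blood. In newborn piglet liver 10 genes of this programme were followed: the globin chains HBB and HBM, the haem synthesis enzyme ALAS2, the regulators GATA1 and KLF1, the receptor EPOR, the membrane anion exchanger SLC4A1, the globin chaperone AHSP, the erythroid ring-finger protein TRIM10 and the transferrin receptor TFRC. They were chosen by symbol, through Ensembl pig identifiers, and 9 of the 10 had a row among the 26733 features of the tables. AHSP was not analysed here.

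The piglets were Landrace x Yorkshire crosses, and the 2 maternal diets differed in how tryptophan (Trp) was spread over the day. Sows of the 2×Trp group received 0.26% Trp in both the morning and the afternoon meal, and sows of the High-Low group 0.39% in the morning and 0.13% in the afternoon. Liver RNA of their newborn piglets gave 3 libraries for each diet, written here as 2×Trp 1 to 3 and High-Low 1 to 3. No label ties the libraries to separate piglets or litters, and p-values therefore cover only the spread among these libraries, part of which may be technical. Whether the livers were cleared of blood is not stated in the labels. The series title asks which liver genes are linked to negative effects of dietary Trp, and the erythroid genes were read for their difference between diets and for how they varied together from library to library.

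Values are FPKM, fragment numbers scaled to transcript length and library depth. Their totals ran from 956426 to 1230288 over the libraries, and the main test used them without further scaling. The values fell on whole fragments, which gave depths of 13300000 to 18700000 fragments in 2×Trp and 15600000 to 18900000 in the High-Low libraries. Differences between diets are High-Low minus 2×Trp on the log2(FPKM + 1) scale, on which low genes change by less than their true fold, and were tested with limma on the 10901 genes that reached 1 FPKM in at least 3 libraries. Hepatocyte markers, such as albumin (ALB), summed to 44061 to 49962 FPKM in 2×Trp and to 41493 to 51178 in the High-Low libraries. Within that sum single markers moved in opposite directions, 6 of the 9 tested positive and 3 negative. ALB averaged 12020 FPKM in 2×Trp and 17650 in High-Low (log2 difference 0.56, unadjusted p = 0.0581 in limma). APOA1 averaged 25161 and 18084 FPKM (-0.46, unadjusted p = 0.0591 in limma). Erythroid RNA was present beside the hepatocyte markers in all 6 libraries.

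The haemoglobin RNAs and ALAS2 were the abundant part of the programme, and their means were lower in the High-Low livers, without passing the adjusted threshold. HBB, the beta chain of haemoglobin, averaged 12342 ± 5418 FPKM in 2×Trp and 4406 ± 2666 in High-Low, while ALAS2, an erythroid enzyme of haem synthesis, averaged 46.0 ± 20.2 and 17.7 ± 8.43 (SD, n = 3 each). The regulators, the receptor and the membrane gene were low, between 0.418 and 2.70 FPKM on average, and the values of each overlapped between the diets. None of the 7 members tested passed an adjusted p of 0.05 in limma, where 0.00917% of all genes tested did. limma-voom on recovered fragments, which could take only EPOR and TRIM10 of the members, called neither, and called 0.0145% of its genes. Log2 differences of the 7 members were negative in 6 and positive in 1, with a median of -0.27, beside a median of -0.004 and 50.5% negative over all genes tested. GATA1 and KLF1 stayed below the filter on low values and are given as values with no test.

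**Figure D1:**
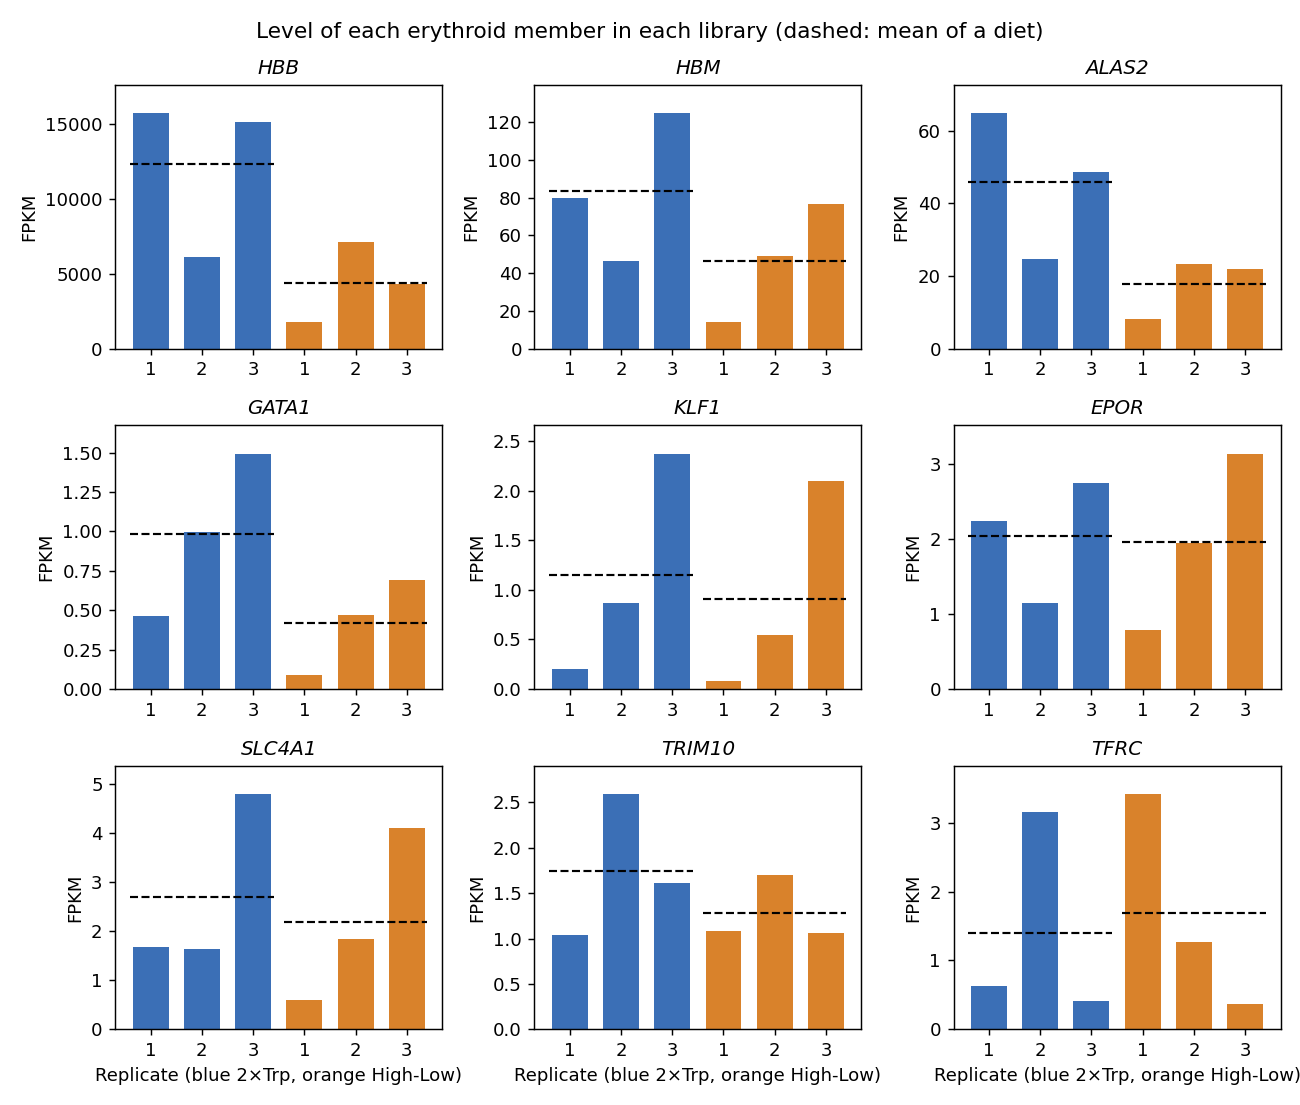
Level in FPKM (vertical axis, from 0, a separate scale for each gene) of the 9 measured erythroid genes in each library, with the 3 2×Trp libraries in blue, the 3 High-Low libraries in orange and the mean of each diet as a dashed line. High-Low 1 has the lowest bar for HBB, HBM, ALAS2, GATA1, KLF1, EPOR and SLC4A1, while the tallest bars of KLF1 and SLC4A1 are in 2×Trp 3 and High-Low 3.

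HBB lies on chromosome 9 at 5632715 to 5634344 of the susScr3 assembly. It stood at 15745, 6094 and 15187 FPKM in 2×Trp 1, 2 and 3 and at 1793, 7122 and 4303 FPKM in High-Low 1, 2 and 3. The groups overlapped, because High-Low 2 lay above 2×Trp 2, and HBB was far higher in 2×Trp 1 and 3 than in the other 4 libraries. It ranked 8th, 32nd and 10th among all features in 2×Trp and 106th, 29th and 41st in the High-Low libraries. The log2 difference was -1.58 (SE 0.56, 95% interval -2.89 to -0.26), with an unadjusted p of 0.0253 and an adjusted p of 0.998 in limma. Across all genes tested 3.16% had an unadjusted p under 0.05, and 1.92% had one with a lower level in High-Low. Without High-Low 1 the difference was -1.03.

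A feature with no symbol, ENSSSCG00000007978, followed HBB almost exactly and was named after its values were seen. It lies on chromosome 3 at 40950681 to 40951551, just after HBM in the alpha-globin cluster. Its levels were 13745, 6593 and 14519 FPKM in 2×Trp and 1741, 7412 and 4416 in the High-Low libraries. Set against HBB in the same library, it stood at 0.873 to 1.08 times the HBB level, so that across a range of 8.78-fold in HBB the ratio moved by 1.24-fold. Its log2 difference was -1.51 (SE 0.55), with an unadjusted p of 0.0271 and an adjusted p of 0.998 in limma. Alpha-like and beta-like chains pair in equal numbers in the protein. HBB, HBM, the embryonic chain HBZ and this feature together made up 2.69%, 1.05% and 2.76% of all FPKM in the 2×Trp libraries, against 0.297%, 1.19% and 0.920% in High-Low.

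HBM, the mu-globin gene of the alpha cluster (chromosome 3, 40948175 to 40948852), was expressed at a small fraction of HBB. It had 80.0, 46.5 and 124.9 FPKM in 2×Trp and 14.2, 49.3 and 76.4 in the High-Low libraries. Its highest level was in 2×Trp 3 and its lowest in High-Low 1, and the groups overlapped. The log2 difference was -1.01 (SE 0.62, 95% interval -2.47 to 0.44; unadjusted p = 0.145 in limma), and -0.33 without High-Low 1. HBM did not hold a fixed ratio to HBB: HBB was 197 times HBM in 2×Trp 1 and 56.3 times HBM in High-Low 3, with 122 to 144 in the other 4 libraries.

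The embryonic chain HBZ and the unnamed features next to HBB had low values. HBZ, the zeta chain of the earliest red cells (chromosome 3, 40946025 to 40947533), had 0.891, 1.08 and 1.10 FPKM in 2×Trp and 0.256, 0.501 and 0.0893 in the High-Low libraries. These rest on 8, 9 and 13 fragments against 3, 5 and 1, and the groups did not overlap. Among the genes tested, which do not include HBZ, 4.12% were separated in that direction. HBZ was below the filter and has no test. ENSSSCG00000014727 and ENSSSCG00000014726, next to HBB on chromosome 9 and also named after their values were seen, reached at most 2.55 and 2.94 FPKM. Only ENSSSCG00000014727 passed the filter, with a log2 difference of -0.08 (unadjusted p = 0.879 in limma). Globin genes resemble each other, and the sources used here do not say how fragments shared by several copies were assigned, so the split between neighbouring globin features is uncertain.

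ALAS2 (chromosome X, 53807665 to 53832133) makes the first and rate-limiting step of haem synthesis in erythroid cells. It had 64.8, 24.6 and 48.5 FPKM in 2×Trp and 8.02, 23.3 and 21.9 in the High-Low libraries. All 3 High-Low values lay below all 3 2×Trp values, though 2×Trp 2 and High-Low 2 were close together, and 4.12% of the genes tested were separated in that direction. The log2 difference was -1.35 (SE 0.48, 95% interval -2.48 to -0.23), with an unadjusted p of 0.0249 and an adjusted p of 0.998 in limma, and was -0.89 without High-Low 1. ALAS2 kept close to HBB, which stood at 197 to 313 times the ALAS2 level, a span of 1.59-fold over the 6 libraries.

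Of 14 haem synthesis genes listed, 10 had a row and were tested, and none was called. The 9 beside ALAS2 had 4 positive and 5 negative differences, with a median of -0.0086, and the median of all 10 ran from -0.29 (without High-Low 2) to 0.05 (without 2×Trp 1) when single libraries were left out. High-Low 1 held the lowest value for 5 of the 10, ALAS2 included, beside 21.0% of all features with a mean of at least 0.1 FPKM. SLC25A38, the mitochondrial glycine carrier that feeds ALAS2, had 9.93, 11.4 and 10.3 FPKM in 2×Trp and 7.76, 9.91 and 8.12 in High-Low. Its groups were just apart (4.12% of all genes tested were separated in that direction), with a log2 difference of -0.27 (unadjusted p = 0.189 in limma). CPOX and UROD, later enzymes of the pathway, had differences of 0.26 and -0.17, and the transporter ABCB10 0.15. CPOX turned to -0.08 and UROD to 0.01 without High-Low 1. ALAS1, the form of the first enzyme used by hepatocytes and other cells, had 136.9, 34.8 and 74.4 FPKM in 2×Trp and 68.8, 256.2 and 41.3 in High-Low. It was highest in High-Low 2, where ALAS2 was not.

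**Figure D2:**
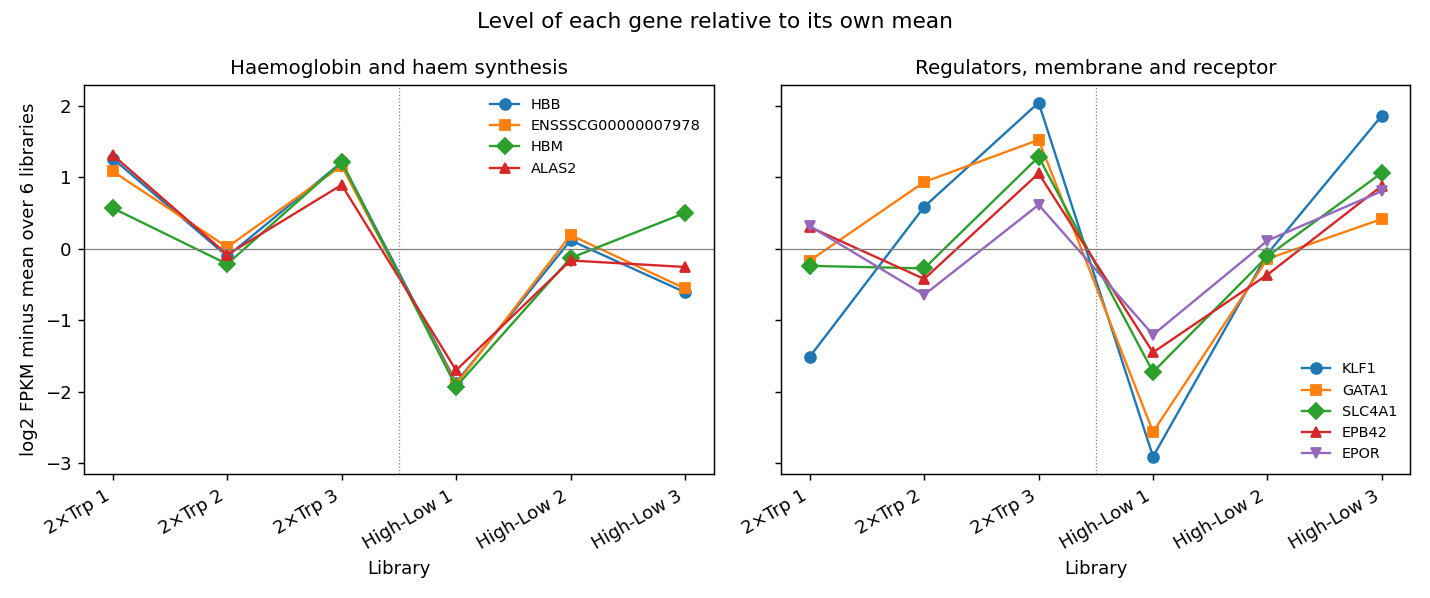
Log2 FPKM of each gene minus its own mean over the 6 libraries (vertical axis) in each library (horizontal axis), with haemoglobin and haem synthesis genes on the left and regulators, membrane genes and the receptor on the right. HBB, ALAS2 and ENSSSCG00000007978 run almost on one line with peaks in 2×Trp 1 and 3, whereas KLF1, SLC4A1 and EPB42 peak in 2×Trp 3 and High-Low 3.

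The regulators were detected at low counts and followed another order of libraries. KLF1, the factor that activates the adult beta-globin gene (chromosome 2, 66451872 to 66455605), had 0.202, 0.865 and 2.38 FPKM in 2×Trp 1, 2 and 3 and 0.0766, 0.548 and 2.10 in High-Low 1, 2 and 3. These rest on 4, 16 and 62 fragments and on 2, 12 and 52 fragments. KLF1 was highest in replicate 3 of both diets, and the groups overlapped. Its means were 1.15 ± 1.11 FPKM in 2×Trp and 0.907 ± 1.06 in High-Low (SD, n = 3 each), so the spread within a diet was larger than the difference between diets. Without 2×Trp 3 or without High-Low 1 the difference of the means turned from -0.18 to 0.21 or 0.16 on the log2 scale.

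GATA1, the factor without which erythroblasts do not mature (chromosome X, 47745337 to 47752876), had 0.463, 0.993 and 1.49 FPKM in 2×Trp and 0.0880, 0.471 and 0.694 in the High-Low libraries, from 8, 16 and 34 fragments and 2, 9 and 15 fragments. It was highest in 2×Trp 3 and lowest in High-Low 1, and the groups overlapped at 2×Trp 1. The means were 0.984 ± 0.516 and 0.418 ± 0.306 FPKM (SD, n = 3 each). Exact Poisson 95% intervals, which cover counting error only, ran from 1.03 to 2.09 FPKM in 2×Trp 3 and from 0.0107 to 0.318 in High-Low 1. Those of the intermediate libraries overlapped one another.

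Of 12 erythroid transcription regulators listed, 9 had a row and only 3 passed the filter, all 3 with negative differences and none called (median -0.18). NFE2, an activator of the globin locus, had 0.545, 1.62 and 2.44 FPKM in 2×Trp and 0.230, 1.70 and 1.89 in High-Low. It was lowest in replicate 1 of both diets, as KLF1 was, and its difference of -0.18 turned to 0.08 without 2×Trp 3 and 0.21 without High-Low 1. LMO2 and LDB1, bridging proteins of the GATA1 complex that endothelial and other cells also make, stood at 2.75 to 6.57 and 9.24 to 16.2 FPKM, with differences of -0.29 and -0.08. LDB1 turned to 0.09 without 2×Trp 1 and 0.08 without High-Low 1. GFI1B, a repressor acting with GATA1, was listed at 0 in High-Low 1 and 2 and reached at most 0.267 FPKM, and MYB, active in early progenitors, at most 0.168 FPKM.

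EPOR, the erythropoietin receptor (chromosome 2, 70426996 to 70432219), showed no difference between the diets beyond its spread. It had 2.23, 1.15 and 2.74 FPKM in 2×Trp and 0.778, 1.94 and 3.14 in the High-Low libraries, from 50, 24 and 81 fragments and 23, 48 and 88 fragments. The highest and the lowest level were both in High-Low libraries. The log2 difference was -0.09 (SE 0.36, 95% interval -0.94 to 0.76; unadjusted p = 0.814 in limma), and it turned to 0.08 without 2×Trp 3 and 0.24 without High-Low 1.

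Of the 13 genes listed for erythropoietin and stem cell factor signalling, 8 had a row and 4 passed the filter, 2 positive and 2 negative, with a median of 0.001 and none called. STAT5B and STAT5A, which carry the signal of EPOR to the nucleus, had differences of 0.31 and 0.09, and the kinase PIM1, a STAT5 target, -0.25. STAT5A turned to -0.10 without High-Low 3 and PIM1 to 0.07 without High-Low 2. EPO itself, the hormone that the fetal liver makes, was listed at 0 in 2×Trp 1 and reached 0.445 FPKM in 2×Trp 2 and 0.442 in High-Low 3. KIT, the stem cell factor receptor of early progenitors, lay between 0.405 and 1.07 FPKM, and ERFE, the hormone by which erythroblasts act on liver iron control, reached at most 0.107 FPKM and was listed at 0 in 3 libraries.

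**Figure D3:**
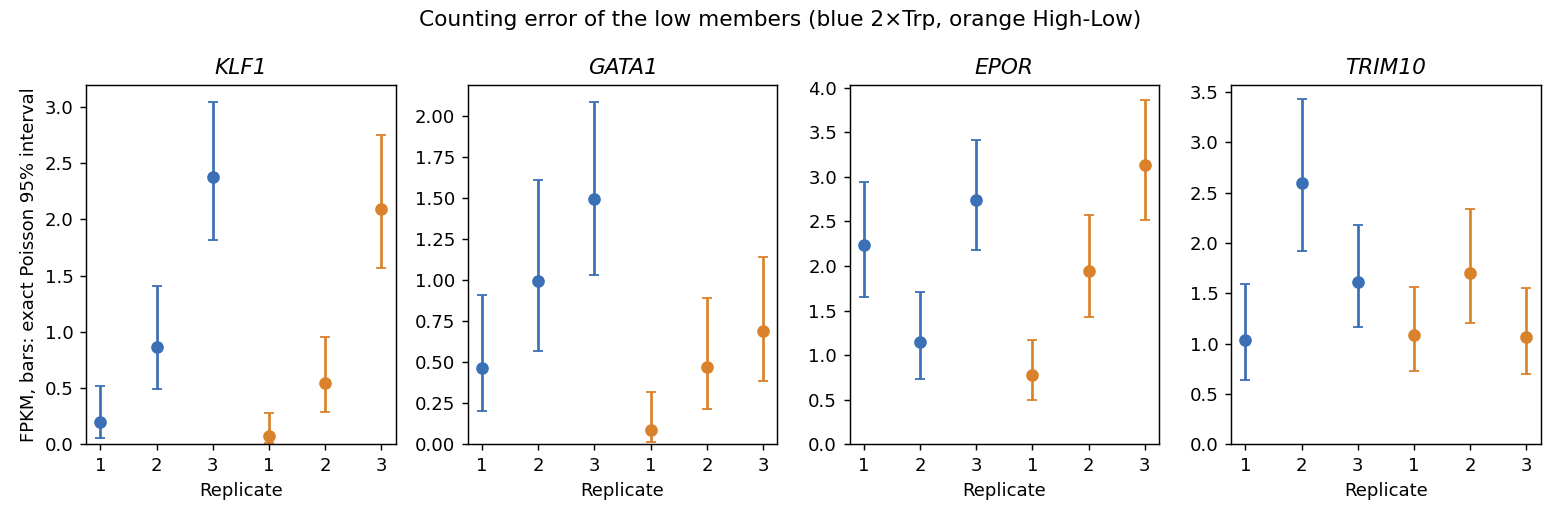
FPKM (vertical axis, from 0) of KLF1, GATA1, EPOR and TRIM10 in each library, with exact Poisson 95% intervals from the recovered fragments as bars (counting error only), 2×Trp in blue and High-Low in orange. For KLF1 the intervals of 2×Trp 3 and High-Low 3 lie above those of the other 4 libraries, and for TRIM10 most intervals overlap.

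SLC4A1, the anion exchanger band 3 of the red cell membrane (chromosome 12, 19179152 to 19196571), had 1.67, 1.63 and 4.81 FPKM in 2×Trp and 0.596, 1.83 and 4.12 in the High-Low libraries. It was highest in replicate 3 of both diets and the groups overlapped, as for KLF1. The log2 difference was -0.27 (SE 0.49, 95% interval -1.42 to 0.87; unadjusted p = 0.594 in limma), and it turned to 0.11 without 2×Trp 3 and 0.15 without High-Low 1. EPB42, which binds band 3 to the skeleton, moved with SLC4A1 and was named after its values were seen: it had 0.887, 0.536 and 1.49 FPKM in 2×Trp and 0.263, 0.559 and 1.32 in High-Low. The ratio of SLC4A1 to EPB42 stayed between 1.88 and 3.28.

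Other low membrane genes, also named after their values were seen, shared the low end in High-Low 1 and the high end in 2×Trp 3. SPTB, the beta chain of spectrin, had 0.293, 0.312 and 0.836 FPKM in 2×Trp and 0.0367, 0.285 and 0.783 in High-Low. The ankyrin ANK1, the Rh-associated glycoprotein RHAG and the adhesion protein ICAM4 reached 0.951, 1.15 and 1.40 FPKM in 2×Trp 3 and had 0.0701, 0.0490 and 0.0749 in High-Low 1. Of the 14 membrane genes with a mean of at least 0.1 FPKM, 8 were lowest in High-Low 1 and 9 highest in 2×Trp 3. Over all 15321 features at that level, 21.0% were lowest in High-Low 1 and 12.3% highest in 2×Trp 3.

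Only 5 of the 21 membrane genes listed passed the filter, 2 positive and 3 negative, with a median of -0.02 and none called. They were mostly genes that other liver cells also make. CD47, a surface protein of most cells, had 11.2 to 13.0 FPKM in 2×Trp and 13.3 to 16.4 in High-Low, groups that were just apart in the direction opposite to HBB (3.06% of all genes tested were separated that way). Its log2 difference was 0.25 (unadjusted p = 0.202 in limma). RHCE, a blood group protein with a near-identical relative, RHD, had a difference of -0.26. EPB41 and DMTN, proteins of the membrane skeleton, had 0.03 and -0.02, and both changed sign when single libraries were left out.

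TRIM10, a ring-finger protein known from the last steps of red cell maturation (ENSSSCG00000001234, chromosome 7, 24847442 to 24857632), went with neither pattern. It had 1.04, 2.59 and 1.61 FPKM in 2×Trp and 1.09, 1.70 and 1.07 in the High-Low libraries, from 21, 49 and 43 fragments and 29, 38 and 27 fragments. TRIM10 was highest in 2×Trp 2, where HBB and ALAS2 had their lowest 2×Trp level, and its range was only 2.50-fold against 8.78-fold for HBB. The groups overlapped, with a log2 difference of -0.24 (SE 0.27, 95% interval -0.86 to 0.39; unadjusted p = 0.398 in limma).

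Of 16 genes listed for late erythroid differentiation, 8 had a row and 7 were tested, 3 positive and 4 negative, with a median of -0.02 and none called. SELENBP1, a selenium-binding protein that hepatocytes also make, had 46.8 to 82.8 FPKM in 2×Trp and 39.5 to 43.5 in High-Low. Its groups did not overlap, as for 4.12% of all genes tested in that direction. The log2 difference was -0.49 (unadjusted p = 0.0871 in limma; -0.64 to -0.24 when single libraries were left out). The carbonic anhydrase CA2 had a difference of 0.39, the glutathione enzyme GCLC 0.61 (0.14 to 1.20 when single libraries were left out) and the haem-regulated kinase EIF2AK1 0.17. CA2 turned to -0.16 without High-Low 2, the library in which it stood at 15.7 FPKM, and EIF2AK1 to -0.02 without High-Low 1.

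TFRC, which brings transferrin-bound iron into erythroblasts and other growing cells (chromosome 13, 143408460 to 143437991), ran against 7 of the 8 other erythroid genes measured. Over the 6 libraries its Pearson r was -0.979 with EPOR, -0.852 with HBM and -0.438 with GATA1, and 0.411 with TRIM10. It had 0.625, 3.15 and 0.416 FPKM in 2×Trp and 3.42, 1.26 and 0.363 in the High-Low libraries. It was highest in High-Low 1 and next in 2×Trp 2. Among the 15321 features averaging at least 0.1 FPKM, 25.4% were highest in High-Low 1 and 13.0% in 2×Trp 2. TFRC was lowest in replicate 3 of both diets, where KLF1 and SLC4A1 were highest. The log2 difference was 0.17 (SE 0.54, 95% interval -1.10 to 1.44; unadjusted p = 0.761 in limma), and it turned to -0.02 without 2×Trp 1, -0.12 without 2×Trp 3 and -0.27 without High-Low 1. The 6 dividing-cell markers measured mostly followed TFRC in being highest in 2×Trp 2 and High-Low 1. Their sum was highest in 2×Trp 2 (9.03 FPKM) and next in High-Low 1 (5.49), with 3.34 to 4.23 in the other 4 libraries. TOP2A, which untangles DNA, had 0.946 FPKM in 2×Trp 2 and 0.872 in High-Low 1. In the same libraries CCNB1 had 1.75 and 1.10 FPKM, PLK1 2.26 and 1.34 and BUB1 0.179 and 0.190, each above its other libraries. The mitotic kinase AURKB, alone in passing the filter, was lowest in High-Low 1 (1.52 FPKM, 27 fragments). Its Poisson 95% interval there, 1.00 to 2.21, overlapped those of all other libraries. CDK1 was highest in 2×Trp 2 (1.99 FPKM). Its levels in High-Low 1 (0.472, 9 fragments) and 2×Trp 3 (0.522, 10 fragments) did not differ beyond counting error. The part of dividing cells in the TFRC levels was not tested.

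Iron handling by the liver showed no shared direction. Of 18 genes listed, 12 had a row and 10 were tested, 5 positive and 5 negative, with a median of 0.03 and none called. TFR2, the second transferrin receptor, by which hepatocytes sense iron and which erythroblasts also carry, had 486, 455 and 502 FPKM in 2×Trp and 350, 421 and 335 in High-Low. Its groups did not overlap (4.12% of all genes tested were separated in that direction), with a log2 difference of -0.39 (SE 0.17; unadjusted p = 0.0584 in limma). BMP6, the signal that sets hepcidin, had a difference of -0.52 (-0.85 to -0.27 when single libraries were left out), and the iron reductase STEAP3 0.59 (0.14 to 0.97). TF, transferrin itself, ran from 1832 FPKM in 2×Trp 3 to 16829 in High-Low 2 and, like TFRC, was lowest in replicate 3 of both diets, with a difference of 0.88 (SE 0.78; unadjusted p = 0.295 in limma; 0.24 to 1.62 when single libraries were left out).

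Genes that clear haemoglobin and haem after red cells break down were not called either. Of 11 listed, 5 had a row and were tested, 2 positive and 3 negative, with a median of -0.10. HMOX2, the constitutive haem oxygenase, had 218.4 to 280.3 FPKM in 2×Trp and 165.5 to 217.7 in High-Low. The groups were just apart (4.12% of all genes tested were separated in that direction), with a log2 difference of -0.36 (unadjusted p = 0.102 in limma). The biliverdin reductases BLVRB and BLVRA had differences of -0.32 and -0.10, and the haem exporter FLVCR1 0.20. BLVRA turned to 0.01 without 2×Trp 2 and 0.08 without High-Low 3.

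**Figure D4:**
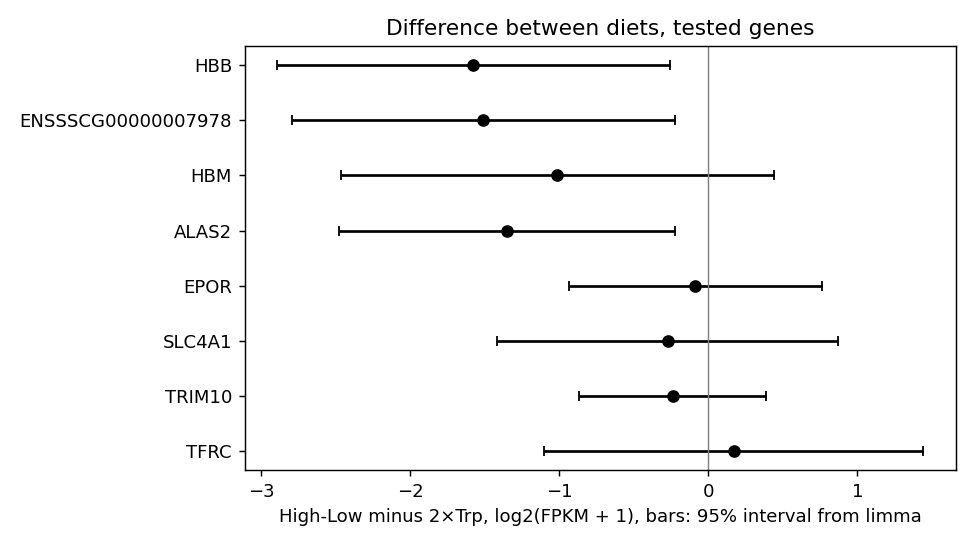
Difference between diets (High-Low minus 2×Trp on the log2(FPKM + 1) scale, horizontal axis) with its 95% interval from limma for the 7 tested erythroid genes and ENSSSCG00000007978. The intervals of HBB, ENSSSCG00000007978 and ALAS2 lie below 0 before adjustment, and those of HBM, EPOR, SLC4A1, TRIM10 and TFRC include 0.

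HBB and the regulators and membrane genes did not keep a fixed proportion across all libraries. HBM, also a globin gene, stayed closer to SLC4A1, with a ratio that spanned 2.58-fold. It was 1.56-fold higher in 2×Trp 3 than in 2×Trp 1 and 1.55-fold higher in High-Low 3 than in High-Low 2. For HBB over SLC4A1 the departures were mainly in 2×Trp 1 and High-Low 3. The libraries 2×Trp 1 and 2×Trp 3 had nearly the same HBB level, at a ratio of 0.965 for the third over the first. KLF1 was nevertheless 11.8-fold higher in 2×Trp 3 (exact binomial 95% interval 4.37 to 44.5, counting error only), GATA1 3.23-fold (1.47 to 8.07) and SLC4A1 2.88-fold. EPB42, chosen after its values were seen, was 1.68-fold higher (1.01 to 2.88). EPOR was 1.23-fold higher (0.854 to 1.79) and TRIM10 1.55-fold (0.902 to 2.76), with intervals that include no difference. Between High-Low libraries, HBB in High-Low 3 was 0.604 times that in High-Low 2, while KLF1 was 3.82-fold higher (2.01 to 7.87), SLC4A1 2.25-fold and EPB42, chosen after its values were seen, 2.37-fold (1.31 to 4.50). GATA1 was 1.47-fold higher, with an interval of 0.604 to 3.82 that includes no difference. From High-Low 1 to High-Low 2 the genes rose together, HBB 3.97-fold and SLC4A1 3.07-fold. In that pair KLF1 rose 7.16-fold (1.59 to 65.8), GATA1 5.36-fold (1.11 to 50.9) and EPOR 2.49-fold (1.49 to 4.29). EPB42 rose 2.13-fold (0.885 to 5.46) and TRIM10 1.56-fold (0.939 to 2.63), with intervals that include no difference.

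HBB stood at 9428, 3741 and 3160 times the SLC4A1 level in 2×Trp and at 3006, 3885 and 1045 times in the High-Low libraries. The ratio was highest in 2×Trp 1 and lowest in High-Low 3, a span of 9.02-fold, and the diets overlapped. In 2×Trp 2, 2×Trp 3, High-Low 1 and High-Low 2 it stayed between 3006 and 3885. Against KLF1 the span was 38.0-fold, against GATA1 5.54-fold and against EPOR 5.14-fold, beside 1.59-fold against ALAS2. The highest ratios to KLF1 and GATA1 rest on 4 KLF1 and 8 GATA1 fragments in 2×Trp 1, so part of these spans may be counting error. On the log2(FPKM + 1) scale the HBB to SLC4A1 ratio averaged 11.7 ± 0.73 in 2×Trp and 10.4 ± 0.82 in High-Low (SD, n = 3 each). That difference of -1.30 gave a 2-sided p of 0.2 in an exact permutation test, where 3 libraries against 3 cannot go below 0.1. Bulk liver RNA cannot tell fewer erythroid cells from less RNA per cell, and whether the HBB and ALAS2 RNA came from circulating red cells or from erythroblasts in the tissue was not tested.

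**Figure D5:**
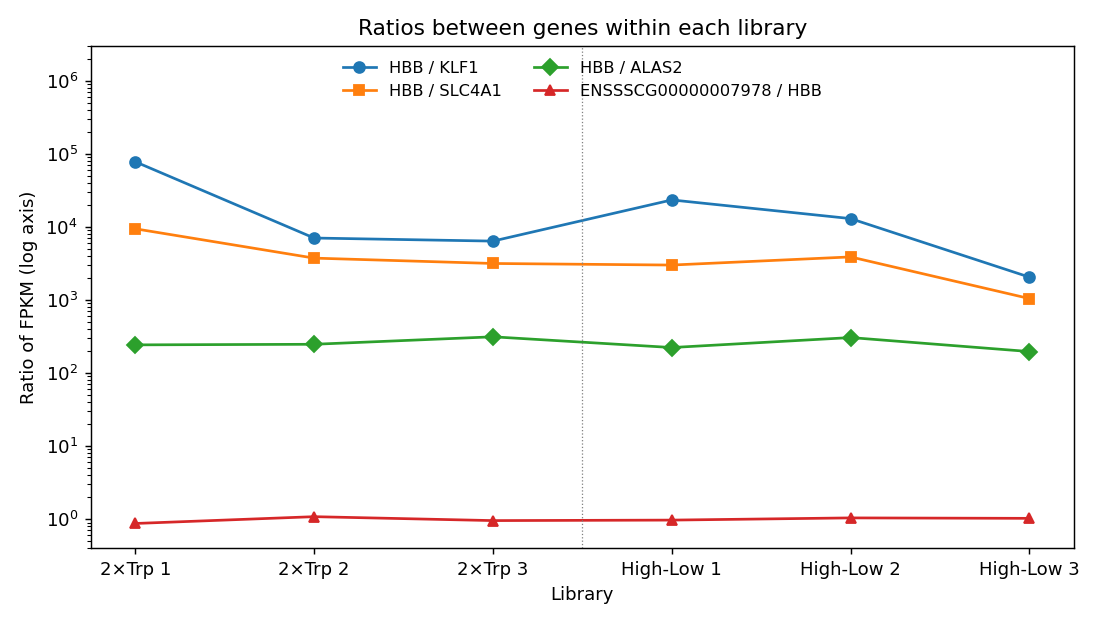
Ratio of FPKM between 2 genes of the same library (vertical log axis) in each library (horizontal axis). ENSSSCG00000007978 over HBB and HBB over ALAS2 are nearly level lines, while HBB over SLC4A1 and HBB over KLF1 are highest in 2×Trp 1 and lowest in High-Low 3.

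The likeness of profiles over the 6 libraries is given as a description, since the points share library depth and scaling and 6 points allow high values by their number alone. Pearson's r of log2(FPKM + 1) with HBB was 0.996 for ENSSSCG00000007978, 0.979 for ALAS2, 0.863 for HBM, 0.640 for GATA1, 0.613 for EPOR, 0.537 for SLC4A1, 0.306 for KLF1, 0.167 for TRIM10 and -0.639 for TFRC. With SLC4A1 it was 0.942 for KLF1, 0.892 for EPOR, 0.875 for HBM, 0.80 for GATA1, 0.548 for ALAS2 and -0.824 for TFRC. HBM was about equally like HBB and SLC4A1, while EPOR, GATA1 and KLF1 had a higher r with SLC4A1 than with HBB. Of 3816 named genes outside the lists with at least 5 FPKM on average, those most like HBB were CAVIN3, a coat protein of caveolae (0.994), SORBS3, a cell adhesion adaptor (0.988), G0S2, an inhibitor of fat breakdown (0.987), ZNF574, a zinc-finger protein (0.986), BMP1, a protease of collagen processing (0.985), and PRR14 (0.981). CAVIN3 had 22.6, 13.6 and 20.7 FPKM in 2×Trp and 5.82, 15.3 and 10.4 in the High-Low libraries, the same order as HBB. Those most like SLC4A1 were SAT1, an enzyme of polyamine breakdown (0.971), TMCO4 (0.952), CTSW, a protease of cytotoxic lymphocytes (0.926), HIC1, a transcriptional repressor (0.924), LCP1, an actin-bundling protein of white blood cells (0.914), and AGXT2, a mitochondrial aminotransferase (0.914).

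Markers of other cells that blood or liver tissue could bring moved in part with HBB and ALAS2. The 7 endothelial markers measured were all negative and summed to 90.4 to 136 FPKM in 2×Trp and 63.6 to 90.7 in High-Low. Of 6 macrophage markers, 5 were negative (4 without High-Low 1), with sums of 420 to 580 against 249 to 450 FPKM. Lymphocyte markers summed to 12.8 to 19.2 against 8.37 to 11.2 FPKM, with both tested members negative, of which 1 turned positive without 2×Trp 3 or without High-Low 1. Most of that sum was NKG7, at 9.47 to 14.2 against 6.14 to 7.51 FPKM, while CD79B averaged 1.45 against 1.41. All 7 tested neutrophil and granulocyte markers were positive, at 40.0 to 61.0 against 43.3 to 186 FPKM, through High-Low 2. Without that library 3 were positive and 4 negative, and the High-Low sums were 43.3 and 53.8 FPKM. Markers of blood progenitors summed to 24.8 to 39.5 against 14.9 to 26.6 FPKM, nearly all of it SPI1, which macrophages also make. Platelet markers stayed below 1 FPKM in sum in every library, with GP1BB and GP6 listed at 0 in all 6. High-Low 1, the library lowest in HBB, also had the lowest sum of the endothelial, macrophage, lymphocyte and progenitor lists. The part of these cells in the erythroid differences was not tested.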

How the data were processed

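Per the labels' protocols, TruSeq RNA libraries were made from 1 ug of liver RNA each. Bowtie2 2.2.3, HTSeq 0.6.1, TopHat2 2.0.12 and susScr3 are named in the submitters' processing notes. Strand setting, annotation and the program behind the values are not given in the sources. For each library the authors deposited a table, with values read as FPKM from their range and totals (956426 to 1230288). Groups and replicate numbers came from the sample titles.

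FPKM of single-exon genes fell on whole fragments (97.8% to 98.9% of 411 to 452 values per library, within 0.05 of a fragment), which gave each library's depth as the smallest that makes them whole. Whole fragments were recovered, within 0.02, for 63.5% of the genes tested, and not for HBB, HBM, ALAS2, SLC4A1 or TFRC.

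Log2(FPKM + 1) was tested with limma 3.58.1 (R 4.3.3) with a mean trend and robust variance and Benjamini-Hochberg adjustment at 0.05. The test and the depth search were tested on simulated data. Scipy 1.17.1 and matplotlib 3.10.9 in Python 3.11.15 gave the exact test and the figures. Symbols matched 11804 of 26733 features.

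Members and gene lists were chosen with earlier results of these data known. Named genes are the members, the haemoglobin genes, the 4 other tested genes of smallest p in each list and the 6 most like HBB or SLC4A1. The choice by smallest p favours genes whose diets do not overlap. Genes outside this rule are said to be named after their values were seen. The same holds for ALB, APOA1, ALAS1, GFI1B, EPO, KIT, MYB, ERFE, SPI1, NKG7, CD79B, GP1BB and GP6. It also holds for the dividing-cell genes TOP2A, AURKB, CDK1, CCNB1, PLK1 and BUB1. Alternatives were other scalings, pseudocounts, filters, variance settings, a replicate block and leaving out each library. Promoter motifs were not analysed here.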

Additional observations from a re-analysis of the deposited data

How the results depend on the processing

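None of the 7 erythroid genes tested passed the adjusted threshold of 0.05 under the 18 or 19 of 20 alternatives that could include it. HBB ranged from -2.03 to -1.03 (lowest adjusted p 0.238 in limma), ALAS2 from -1.74 to -0.89, HBM from -1.51 to -0.33 and TRIM10 from -0.44 to -0.03, each keeping its sign. Over 35 named features with a test, 636 of 675 alternative values kept their sign and 39 reversed. The count of all genes called lower was 0 and became 1 when libraries were scaled to the FPKM total, to that total without the haemoglobin genes, to the total also without ENSSSCG00000007978 (chosen after seeing the data), by quantile normalization and with array weights. The count called higher was 1, and 1 to 2 when single replicates were left out. The genes at an unadjusted p under 0.05 went from 345 to 1412 without High-Low replicate 2 and to 1789 with array weights. Array weights also turned EPOR to 0.23, SLC4A1 to 0.12, TFRC to -0.27, LMO2 to 0.036, LDB1 to 0.12, CA2 to -0.14, BMP6 to 0.026 and STEAP3 to -0.15. Scaling to the upper quartile turned DMTN to 0.0091, and a pseudocount of 0.1 turned ENSSSCG00000014727 to 0.32 and moved GATA1, which has no test, from -0.47 to -1.18. The causes were not tested.

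Leaving out single replicates gave ranges that crossed 0 for TFRC (-0.27 to 0.66), EPOR (-0.37 to 0.24), SLC4A1 (-0.69 to 0.15), LDB1 (-0.28 to 0.094), NFE2 (-0.50 to 0.21), EPB41 (-0.18 to 0.40), DMTN (-0.27 to 0.14), CPOX (-0.076 to 0.56), UROD (-0.47 to 0.0071), EIF2AK1 (-0.019 to 0.30), PIM1 (-0.54 to 0.065), CA2 (-0.16 to 0.70), STAT5A (-0.10 to 0.21), BLVRA (-0.32 to 0.084) and ENSSSCG00000014727 (-0.62 to 0.29). The HBB to SLC4A1 difference of -1.30 ranged from -1.76 to -0.88 without single replicates and from -1.75 to -0.22 with another pseudocount or denominator, with exact permutation p from 0.1 to 0.4.

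No pairing by replicate number was seen over all genes tested (correlations of same-numbered deviations -0.216, -0.0114 and 0.0323, and -0.133 to 0.119 for unlike numbers). With 3 libraries for each diet the check cannot show whether same-numbered libraries share a litter or a batch. The fit with the replicate number as a block left 1 gene higher and 0 lower, with 304 at an unadjusted p under 0.05, and HBB at -1.58 (unadjusted p = 0.0506 in limma). limma-voom on the recovered fragments, chosen after seeing the data in place of a planned count model that was not run, called 1 of 6917 genes (0.0145%) and could not include HBB, HBM, ALAS2, SLC4A1 or TFRC. KLF1 rested on 2 to 62 fragments and GATA1 on 2 to 34 per library, and no test of their difference between diets is reported. Counts of list members by sign without single libraries, and of the haem list without ALAS2, were added after seeing the data.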
